A study of Mus musculus with 12 samples.

Results

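Cytochrome P450 genes were examined in RNA of CD45-positive cells from mouse livers carrying tumours driven by human c-Myc and N-ras. Members were chosen by symbol and by their mean FPKM, a fragment count scaled by transcript length and by the library's mapped fragments. The symbol had to be made of Cyp, digits, a letter and digits, read as a prefix so that Cyp4a12a was included, and the mean had to be at least 0.5 FPKM over the 12 libraries. The pattern matched 103 entries, of which 3 pseudogene symbols and 2 further symbols were left out, and 37 of the remaining 98 genes reached the mean, out of 24319 entries in the table. Of the 61 genes under the mean, 17 were at 0 in every library and 4 exceeded 1 FPKM in some library. The last members inside were Cyp2c67 with a mean of 0.588 FPKM and Cyp2d40 with 0.572 FPKM, and the first outside were Cyp4f15 with 0.422 FPKM and Cyp2c37 with 0.404 FPKM.

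All mice were C57BL/6 and received the c-Myc and N-ras plasmids by hydrodynamic transfection, a rapid tail-vein injection that carries DNA into hepatocytes, on day 0. The combination group received polyIC, a synthetic double-stranded RNA, at 4 mg/kg by intraperitoneal injection on days 14, 16, 18, 20 and 22, and 200 µg of PD-L1 antibody on days 17, 19 and 21. The polyIC group received polyIC with 200 µg of IgG in place of the antibody, the antiPDL1 group received the antibody with PBS in place of polyIC, and the control group received PBS and IgG. Mice were killed on day 24 by the protocol, whereas the time point label gives day 22. Each group had 3 libraries, numbered 0, 1 and 2. The labels do not say that these came from separate mice, so p-values measure the spread between the libraries, which may be partly technical.

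Cytochrome P450 enzymes are haem proteins that insert oxygen into their substrates, and most microsomal members draw electrons from the reductase Por. Hepatocytes carry the richest set: families 2 and 3 oxidise drugs and other foreign compounds, family 4 hydroxylates fatty acids, and others act on sterols, bile acids and retinoids. Leukocytes carry a smaller set that acts on lipid mediators, oxysterols and vitamin D. The 37 members were divided by known function and site into 25 hepatic enzymes and 12 leukocyte or shared enzymes. The hepatic enzymes comprised 20 of drug metabolism, 3 of fatty acids, 1 of bile acids and 1 of retinoids. Of the second set, 2 are known mainly from immune or barrier cells and 10 are expressed in many tissues.

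The libraries held RNA of hepatocytes as well as of leukocytes. The summed FPKM of 5 pan-leukocyte genes was 7125 to 7868 in combination, 5115 to 6409 in polyIC, 4314 to 7687 in antiPDL1 and 3757 to 5177 in control libraries. The summed FPKM of 22 hepatocyte genes was 289 to 507 in combination, 2669 to 3617 in polyIC, 601 to 3220 in antiPDL1 and 2081 to 6684 in control libraries, and none of the 22 was at 0 in every library. Depth was not given and was estimated in relative terms, from the most frequent ratio between low FPKM values of library pairs. Of 66 pairs, 37 were used, and the estimates ran from 0.461 to 1 of the deepest library. By mean correlation over the genes tested, antiPDL1 replicates 0 and 2 and control replicate 2 resembled the libraries of some other group more than those sharing their label. In bulk RNA, fewer cells of a type and less RNA per cell cannot be told apart.

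**Figure D1:**
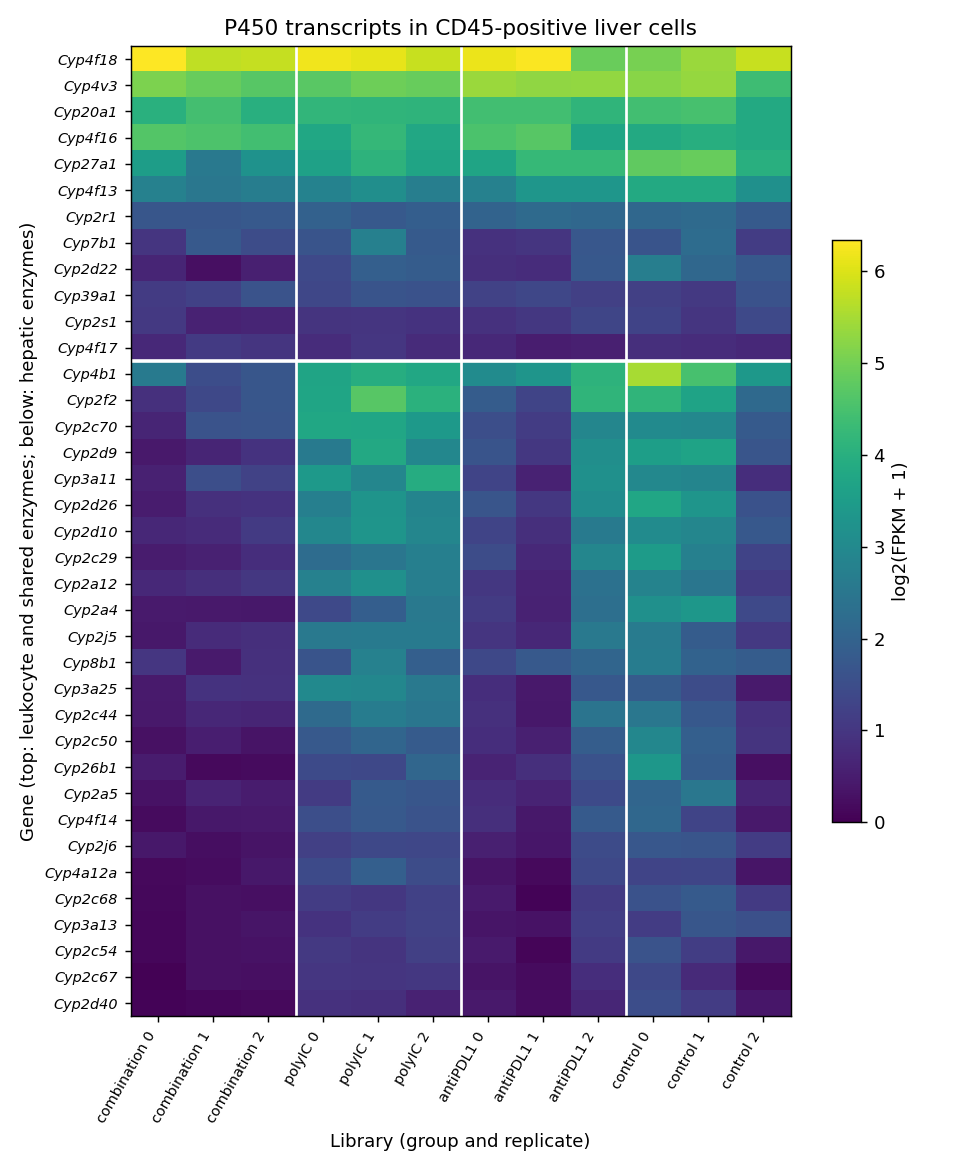
Expression of the 37 cytochrome P450 genes, as log2(FPKM + 1) by colour, with 1 row per gene and 1 column per library, ordered combination, polyIC, antiPDL1 and control. The 25 hepatic genes below the white line were dark in the 3 combination libraries and in antiPDL1 replicates 0 and 1, and control replicate 2 was darker than control replicates 0 and 1 for most of them, whereas the uppermost leukocyte and shared genes were bright in every library.

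The hepatic enzymes and the leukocyte and shared enzymes differed in how their totals varied. The summed FPKM of the 25 hepatic enzymes was 13.5, 16.5 and 19.0 in combination, 108, 147 and 124 in polyIC, 32.5, 23.6 and 114 in antiPDL1 and 183, 126 and 39.2 in control libraries. All 3 combination libraries lay below every control library, while the polyIC and antiPDL1 libraries overlapped control. Means were 16.3 ± 2.73 in combination, 126 ± 19.2 in polyIC, 56.8 ± 50.1 in antiPDL1 and 116 ± 72.4 FPKM in control (SD, n = 3 each). The 12 leukocyte and shared enzymes summed to 151 ± 21.3 in combination, 156 ± 14.8 in polyIC, 170 ± 32.0 in antiPDL1 and 154 ± 18.8 FPKM in control (SD, n = 3 each), with overlap between all groups. Within these similar totals, single members differed in opposite directions. In combination against control, Cyp4f18 averaged 62.0 against 42.5 FPKM and Cyp27a1 7.95 against 23.2 FPKM. Of the summed FPKM of the 37 members, hepatic enzymes made up 7.17% to 12.2% in combination and 41.1% to 46.8% in polyIC libraries. Their part was 10.7% to 45.9% in antiPDL1 and 22.6% to 53.9% in control libraries. P450 genes left out of the 37 do not enter these shares.

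The hepatic P450 sum was also set against hepatocyte RNA. Per 1000 FPKM of the 22 hepatocyte genes, it was 46.8, 37.8 and 37.5 in combination, 40.6, 40.5 and 40.6 in polyIC, 26.7, 39.2 and 35.5 in antiPDL1 and 27.4, 23.7 and 18.9 in control libraries. Every combination and polyIC library lay above every control library on this ratio, and antiPDL1 replicate 0 lay within the control range. Means were 40.7 ± 5.32 in combination, 40.6 ± 0.0559 in polyIC, 33.8 ± 6.46 in antiPDL1 and 23.3 ± 4.27 in control (SD, n = 3 each). The ratio is a description, without a test.

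**Figure D2:**
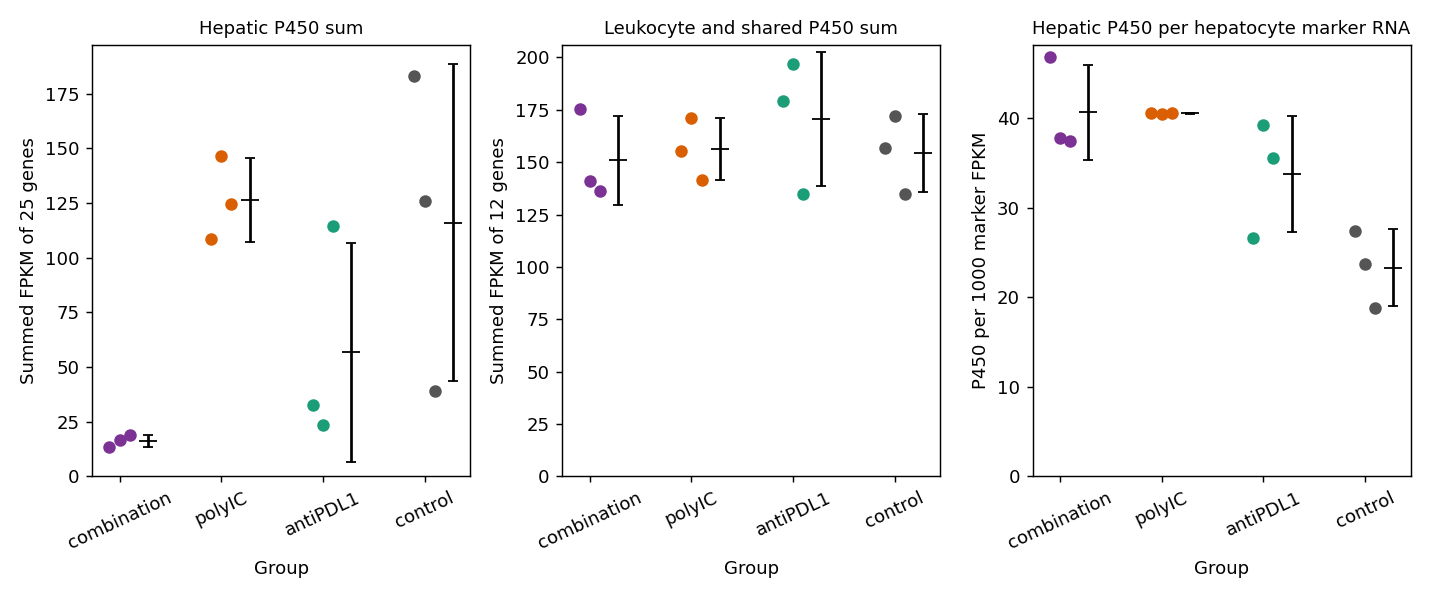
Summed FPKM of the 25 hepatic enzymes (left), summed FPKM of the 12 leukocyte and shared enzymes (centre) and hepatic P450 FPKM per 1000 FPKM of 22 hepatocyte genes (right), by group. Points are libraries and bars are mean ± SD of 3. The combination libraries were lowest on the left, between 13.5 and 19.0, and above every control library on the right.

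The leukocyte and shared enzymes were led by Cyp4f18, which in mouse neutrophils hydroxylates leukotriene B4. Cyp4f18 had 80.1, 52.0 and 54.0 FPKM in combination, 72.9, 68.0 and 54.8 in polyIC, 70.0, 78.5 and 28.9 in antiPDL1 and 32.1, 40.8 and 54.7 in control libraries. The lowest polyIC library, at 54.8 FPKM, lay just above the highest control library, at 54.7 FPKM, and the other groups overlapped control. The log2 change of FPKM + 1, the scale of every fold change given here, was 0.54 ± 0.34 in combination (SE; limma, adjusted p = 0.253), 0.63 ± 0.34 in polyIC (adjusted p = 0.307) and 0.38 ± 0.34 in antiPDL1 (adjusted p = 0.566), each against control. This scale understates the change of genes with low FPKM. Neutrophil markers varied alongside: their sum was 2005 to 5714 in combination, 3404 to 5774 in polyIC, 1660 to 5496 in antiPDL1 and 1063 to 3224 FPKM in control libraries, and their part in Cyp4f18 was not tested.

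Cyp4v3, the mouse counterpart of the human fatty acid hydroxylase CYP4V2, and Cyp20a1, an enzyme without a settled substrate, followed in level. Cyp4v3 averaged 28.7 ± 3.94 in combination, 27.7 ± 2.14 in polyIC, 39.2 ± 1.35 in antiPDL1 and 31.9 ± 10.6 FPKM in control. Cyp20a1 averaged 17.0 ± 3.37 in combination, 16.9 ± 0.300 in polyIC, 19.2 ± 2.22 in antiPDL1 and 18.5 ± 4.41 FPKM in control (SD, n = 3 each for both genes). For both genes the libraries of each treated group overlapped control, and no change passed the test.

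Cyp4f16, a family 4 enzyme of fatty acid hydroxylation, had 23.9, 22.6 and 20.3 FPKM in combination, 12.6, 17.8 and 12.99 in polyIC, 22.5, 24.7 and 12.3 in antiPDL1 and 13.5, 14.6 and 13.3 in control libraries. It was the only one of the 37 members whose combination libraries all lay above every control library, an arrangement found in 25.6% of all genes tested. Its log2 change of 0.65 ± 0.23 in combination against control did not pass the threshold (SE; limma, adjusted p = 0.0529). Its transcript is 85.7% identical to that of Cyp4f17 over 1866 bases, so reads may be shared between them. Cyp4f17 itself averaged 0.912 ± 0.228 in combination, 0.831 ± 0.162 in polyIC, 0.518 ± 0.119 in antiPDL1 and 0.740 ± 0.0739 FPKM in control (SD, n = 3 each) and was too low for the main test. Its highest antiPDL1 library, at 0.652 FPKM, lay just below its lowest control library, at 0.660 FPKM. Every antiPDL1 library lay below every control library in 7.89% of all genes tested and in 1 of the 37 members.

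Cyp27a1, the sterol 27-hydroxylase of mitochondria in hepatocytes and macrophages, fell in combination. It had 10.6, 4.96 and 8.33 FPKM in combination, 11.3, 16.1 and 11.9 in polyIC, 11.9, 17.9 and 18.0 in antiPDL1 and 26.6, 28.2 and 14.9 in control libraries. Every combination library was below every control library, and the log2 change was -1.44 ± 0.29 (SE; limma, adjusted p = 0.00629). Of 8 Kupffer cell markers, 7 also fell in combination, beside 16.3% of all genes called lower. The Kupffer sum was 222 to 504 in combination, 1187 to 2188 in polyIC, 1014 to 6560 in antiPDL1 and 1942 to 8912 FPKM in control libraries, with no marker at 0 in every library; the part of these cells in Cyp27a1 was not tested.

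Cyp4f13 and Cyp2d22 were the other shared enzymes that fell in combination. Cyp4f13, of family 4, had 5.90, 4.68 and 5.497 FPKM in combination against 13.3, 13.5 and 8.16 in control libraries, a log2 change of -0.97 ± 0.22 (SE; limma, adjusted p = 0.00929). Cyp2d22, a mouse member of the 2D family, had 0.569, 0.198 and 0.459 FPKM in combination against 5.55, 3.37 and 2.38 in control libraries, a log2 change of -1.71 ± 0.30 (SE; limma, adjusted p = 0.00345). Neither gene's combination libraries overlapped control. In polyIC, Cyp4f13 had 6.01, 7.80 and 5.60 FPKM, also below every control library. That arrangement was found in 12.4% of all genes tested and in 1 of the 37 members. The log2 change of Cyp4f13 in polyIC was -0.74 ± 0.22 and missed the threshold (SE; limma, adjusted p = 0.0841). Part of the Cyp2d22 transcript, 771 bases, is 85.6% identical to Cyp2d40. The Cyp2d22 mean in combination was 0.109 of its control mean, beside 0.0876 for the sum of the hepatocyte genes. Relative to that sum, its combination libraries overlapped control, and the part of hepatocytes in Cyp2d22 was not tested.

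The low shared enzymes passed no test against control. Cyp2r1, a vitamin D 25-hydroxylase, averaged 2.30 ± 0.104 in combination, 2.70 ± 0.240 in polyIC, 3.34 ± 0.248 in antiPDL1 and 3.12 ± 0.594 FPKM in control. Cyp7b1, the oxysterol 7α-hydroxylase, averaged 1.72 ± 0.723 in combination, 3.45 ± 1.98 in polyIC, 1.38 ± 0.795 in antiPDL1 and 2.35 ± 1.30 FPKM in control. Cyp39a1, which hydroxylates 24-hydroxycholesterol, averaged 1.52 ± 0.491 in combination, 1.89 ± 0.289 in polyIC, 1.41 ± 0.122 in antiPDL1 and 1.45 ± 0.488 FPKM in control (SD, n = 3 each for these genes). The treated groups overlapped control for each of them except Cyp2r1, whose combination libraries lay below every control library. Cyp2s1, known from epithelia and macrophages, averaged 0.721 ± 0.297 in combination, 0.940 ± 0.0424 in polyIC, 1.13 ± 0.327 in antiPDL1 and 1.33 ± 0.340 FPKM in control (SD, n = 3 each), and its combination libraries overlapped control.

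In the combination, 16 of the 34 members tested fell against control and 0 rose, beside 16.3% of all genes called lower and 13.1% called higher (limma, adjusted p under 0.05). The 16 comprised 13 of 23 hepatic enzymes and 3 of 11 leukocyte and shared enzymes. The median log2 change was -1.27 over the hepatic and -0.26 over the leukocyte and shared enzymes, beside 0.05 over all genes tested. With quantile normalization the background was 2004 genes higher and 1644 lower, in place of 1576 higher and 1951 lower, and with median-of-ratios rescaling the median over all genes was -0.05. Each of the 16 changes kept its sign under both scalings. All 16 passed the test with median-of-ratios rescaling, and 12 did with quantile normalization, where Cyp2a5, Cyp2c29, Cyp2c50 and Cyp2f2 missed it.

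Among the hepatic enzymes, the largest log2 change in combination was that of Cyp4b1, a family 4 enzyme best known from lung. Cyp4b1 had 4.99, 1.82 and 2.24 FPKM in combination, 12.1, 14.5 and 13.03 in polyIC, 7.33, 8.83 and 16.1 in antiPDL1 and 44.5, 21.6 and 9.46 in control libraries. The combination libraries lay below every control library, and the log2 change was -2.54 ± 0.47 (SE; limma, adjusted p = 0.00433). Cyp8b1, the sterol 12α-hydroxylase that sets the share of cholic acid in bile, had 1.02, 0.367 and 0.824 FPKM in combination against 5.28, 2.99 and 2.58 in control libraries. Its combination libraries lay below every control library, and its log2 change was -1.39 ± 0.32 (SE; limma, adjusted p = 0.00947).

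Of the 2D enzymes, a family of drug and steroid hydroxylases expanded in the mouse, Cyp2d9, Cyp2d26 and Cyp2d10 fell in combination. Cyp2d9, higher in male than in female mouse liver, had 0.347, 0.566 and 0.910 FPKM in combination against 10.8, 11.7 and 2.21 in control libraries, a log2 change of -2.30 ± 0.59 (SE; limma, adjusted p = 0.0157). Cyp2d26 had 0.402, 0.843 and 0.908 FPKM in combination against 12.4, 8.88 and 2.04 in control libraries, a log2 change of -2.12 ± 0.56 (adjusted p = 0.0172). Cyp2d10 had 0.625, 0.705 and 1.10 FPKM in combination against 7.31, 6.54 and 2.36 in control libraries, a log2 change of -1.73 ± 0.43 (adjusted p = 0.0133). In all of these genes control replicate 2 was the lowest control library and still lay above every combination library. Cyp2d9 and Cyp2d10 are 91.8% identical over 1643 bases, so their separate values are uncertain.

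Both 2A and 2C enzymes were among those that fell in combination. Cyp2a4 had 0.374, 0.356 and 0.327 FPKM in combination against 8.15, 9.23 and 1.63 in control libraries, a log2 change of -2.21 ± 0.53 (SE; limma, adjusted p = 0.0118). Cyp2a5, the coumarin hydroxylase, is 98.2% identical to Cyp2a4 over 1739 bases, so the pair cannot be read separately with confidence; its log2 change was -1.27 ± 0.41 (adjusted p = 0.0367). In the 2C family, which oxidises drugs and arachidonic acid, the log2 change was -1.87 ± 0.56 for Cyp2c29 (adjusted p = 0.0292), -1.56 ± 0.44 for Cyp2c50 (adjusted p = 0.0221) and -1.26 ± 0.25 for Cyp2c68 (adjusted p = 0.00584). Cyp2c50 is 92.8% identical to Cyp2c54, and Cyp2c68 is 97.0% identical to Cyp2c67. All of these called genes had every combination library below every control library, an arrangement found in 20.3% of all genes tested and in 19 of the 25 hepatic members.

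The remaining hepatic calls were Cyp2f2, Cyp2j6 and Cyp3a13. Cyp2f2, which activates naphthalene in mouse lung and liver, had 0.841, 1.61 and 2.24 FPKM in combination against 16.9, 11.7 and 3.52 in control libraries, a log2 change of -2.02 ± 0.68 (SE; limma, adjusted p = 0.0436). Cyp2j6 changed by -1.18 ± 0.25 (adjusted p = 0.00777) and Cyp3a13 by -1.21 ± 0.24 (adjusted p = 0.00538) on the log2 scale. The combination libraries of these genes did not overlap control either.

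The other 10 tested hepatic enzymes had log2 changes below 0 in combination without passing the threshold, among them Cyp3a11 with -1.10 ± 0.67 and Cyp3a25 with -0.48 ± 0.37 (SE; limma, adjusted p = 0.233 and 0.341). Cyp26b1, which degrades retinoic acid, ranged from 0.113 to 0.386 FPKM in combination and from 0.207 to 9.27 FPKM in control libraries. Of the hepatic members too low for the main test, Cyp2d40 changed by -0.87 ± 0.25 and Cyp2c67 by -0.58 ± 0.28 in a fit of every gene with a mean of at least 0.5 FPKM (SE; limma, adjusted p = 0.0254 and 0.134). In that fit 16.4% of all genes were called lower.

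The fall in combination ran alongside a fall of hepatocyte RNA. Of the 22 hepatocyte genes 21 fell, beside 16.3% of all genes called lower, with a median log2 change of -2.996. The hepatic P450 median of -1.27 comes from genes of lower FPKM, whose change this scale understates. In FPKM, the combination mean was 14.1% of the control mean for the hepatic P450 sum and 8.76% for the hepatocyte sum. With the mean log2 level of the 22 genes as a further term, none of the 34 members and 0.0% of all 11991 genes passed the limma test in combination against control, and 914 genes, 12 members among them, had an unadjusted p under 0.05. Of the 13 hepatic calls, 8 had a log2 change above 0 with this term. In that comparison the treatment and the hepatocyte content cannot be told apart. Of the 16 calls without this term, 8 held when each of the 12 libraries was left out in turn: Cyp27a1, Cyp2c68, Cyp2d22, Cyp2j6, Cyp3a13, Cyp4b1, Cyp4f13 and Cyp8b1. The count of calls was 8 without control replicate 0, 10 without control replicate 1, 10 without combination replicate 1 and 26 without control replicate 2. The share of all genes called in those fits was 14.3%, 18.7%, 14.1% and 34.5% in the same order.

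**Figure D3:**
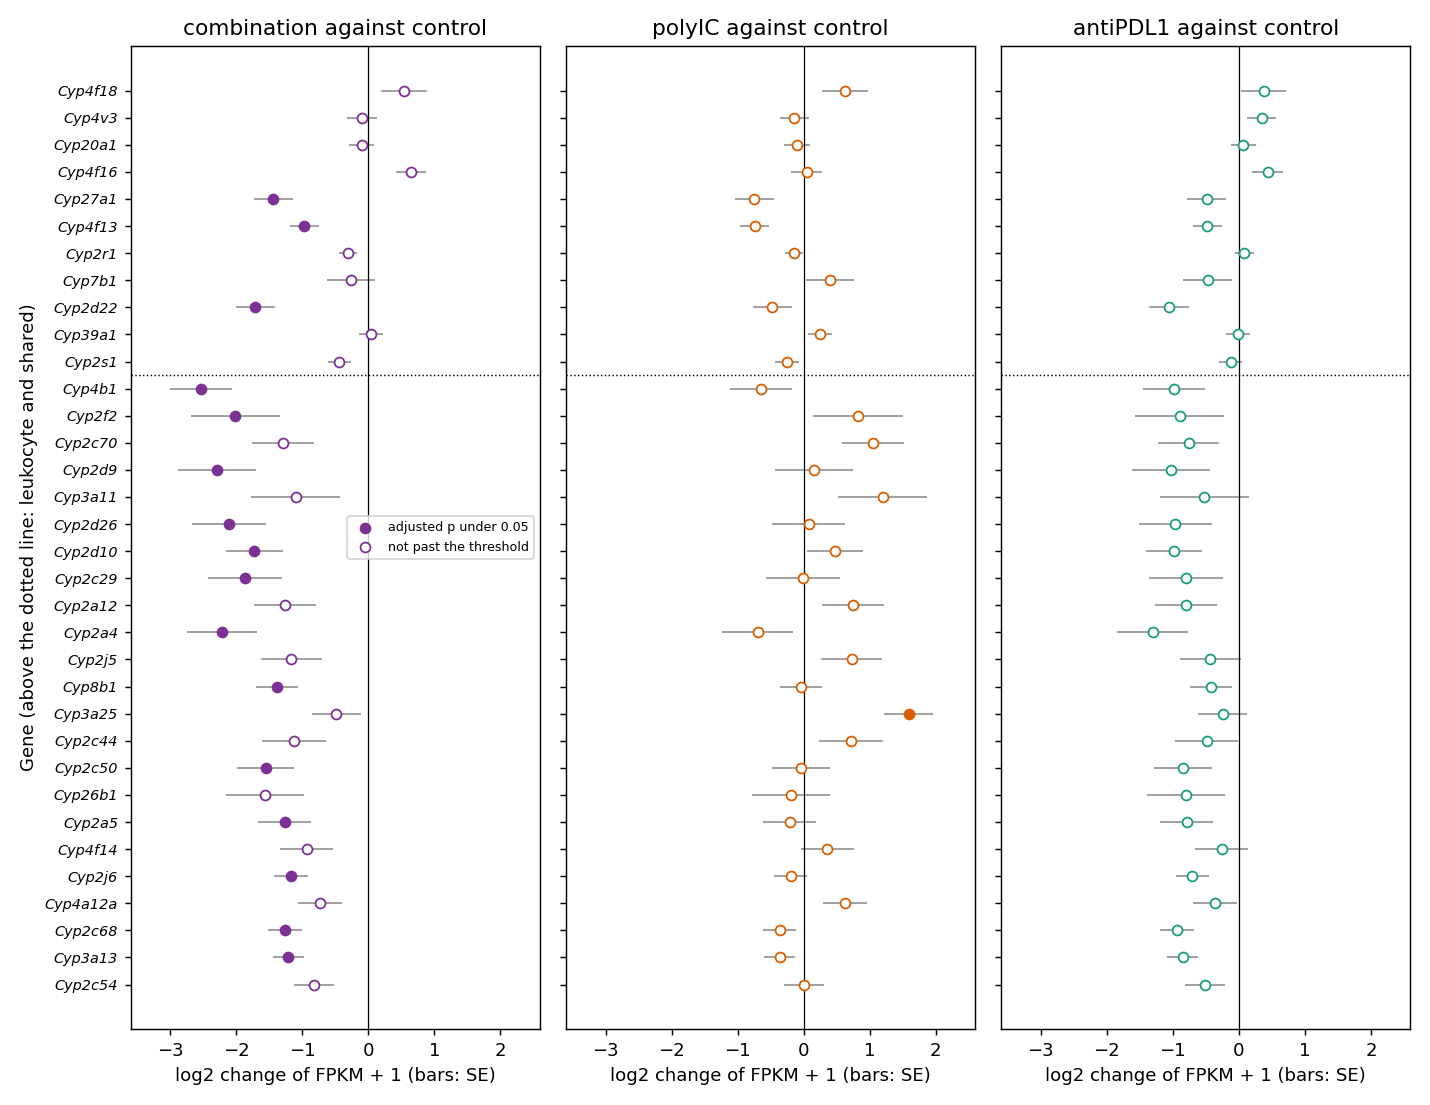
Log2 change of FPKM + 1 against control for the 34 members tested, in combination, polyIC and antiPDL1, with leukocyte and shared enzymes above the dotted line and hepatic enzymes below. Bars are SE, and filled points passed an adjusted p of 0.05 in limma: 16 in combination, all below 0, 1 in polyIC, Cyp3a25, and 0 in antiPDL1.

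With polyIC alone, 13 of the 23 hepatic enzymes tested had log2 changes above 0 and 10 below. Of the 34 members, 1 rose and 0 fell against control, beside 2.47% of all genes called higher and 1.18% called lower. The median log2 change was 0.08 over the hepatic enzymes, -0.14 over the leukocyte and shared enzymes and -0.01 over all genes. The member that rose was Cyp3a25, of the family 3A drug hydroxylases. It had 0.372, 0.890 and 0.885 FPKM in combination, 7.12, 6.63 and 4.93 in polyIC, 0.771, 0.356 and 2.34 in antiPDL1 and 2.52, 1.76 and 0.377 in control libraries. The polyIC libraries lay above every other library, and the log2 change was 1.59 ± 0.37 against control (SE; limma, adjusted p = 0.0433). That adjusted p ranged from 0.0155 to 0.190 as each library was left out, and passed the threshold in 4 of 12 runs. The libraries whose absence ended the call were the 3 of combination, the 3 of polyIC and control replicates 0 and 1.

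Relative to hepatocyte RNA, more hepatic enzymes rose with polyIC. With the hepatocyte term in the fit, 8 members rose and 0 fell against control, beside 3.77% of all genes called higher and 2.02% called lower. All 8 were hepatic: Cyp3a25, Cyp3a11, Cyp2c70, Cyp2f2, Cyp2a12, Cyp2j5, Cyp2c44 and Cyp4a12a. The hepatocyte term was 1 of several alternatives to the group-only fit, in which only Cyp3a25 was called. The mean level of the 22 genes was 6.25 ± 0.241 in polyIC and 6.39 ± 0.929 log2 units in control (SD, n = 3 each). Of the 22 genes that make up the term, 5 were themselves called in this fit: Cps1, Serpina3k and Tdo2 rose, and Rbp4 and Trf fell.

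Cyp3a25 had a log2 change of 1.68 ± 0.16 in this fit (SE; limma, adjusted p = 0.00154). Per 1000 FPKM of the hepatocyte genes, it was at 1.29, 2.04 and 1.75 in combination, 2.67, 1.83 and 1.61 in polyIC, 0.634, 0.591 and 0.725 in antiPDL1 and 0.378, 0.331 and 0.181 in control libraries. Every treated library lay above every control library on this ratio, which was also so for Cyp2c70, Cyp2j5 and Cyp7b1. Cyp7b1 is a shared enzyme whose mean FPKM was 0.732 of control in combination, 1.47 in polyIC and 0.586 in antiPDL1. In FPKM its libraries overlapped control in each group. Of the 25 hepatic members, 9 in combination, 12 in polyIC and 4 in antiPDL1 lay above every control library on this ratio, and 0 below. The share of all genes with that arrangement on the ratio was not computed. The hepatocyte sum was 0.0876, 0.665 and 0.358 of control in these groups, so a gene of unchanged FPKM rises on the ratio. Cyp20a1, a shared enzyme whose FPKM overlapped control in combination, had there 9.57 times its control mean on the ratio. The Cyp3a25 call held in each of 12 runs that left out a library, with log2 changes from 1.53 to 1.80.

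Cyp3a11, a major drug hydroxylase of mouse liver and a target of the xenobiotic receptor PXR, had 0.504, 1.87 and 1.40 FPKM in combination, 9.70, 6.53 and 14.2 in polyIC, 1.48, 0.523 and 8.11 in antiPDL1 and 6.79, 6.34 and 0.777 in control libraries. The polyIC and control libraries overlapped. Its log2 change in polyIC was 1.20 ± 0.67 without and 1.35 ± 0.31 with the hepatocyte term (SE; limma, adjusted p = 0.318 and 0.0339). The call with the term held in 7 of 12 runs that left out a library, with adjusted p up to 0.142.

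Cyp2c70, which makes muricholic acids in mouse liver, had 0.570, 2.07 and 2.17 FPKM in combination, 12.8, 12.5 and 9.74 in polyIC, 1.86, 1.17 and 6.48 in antiPDL1 and 7.26, 6.78 and 2.49 in control libraries. The polyIC libraries lay above all others, an arrangement against control found in 16.2% of all genes tested and in 3 of the 25 hepatic members. Its log2 change in polyIC was 1.05 ± 0.46 without and 1.16 ± 0.18 with the hepatocyte term (SE; limma, adjusted p = 0.212 and 0.0106). The call with the term held in 11 of 12 runs that left out a library.

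The other calls with the hepatocyte term were smaller. The log2 change was 1.00 ± 0.20 for Cyp2f2, 0.87 ± 0.17 for Cyp2a12, 0.84 ± 0.19 for Cyp2j5, an epoxygenase of arachidonic acid, 0.83 ± 0.19 for Cyp2c44 and 0.70 ± 0.16 for Cyp4a12a, a fatty acid hydroxylase higher in male mice (SE). Their limma adjusted p values lay between 0.0191 and 0.0324, and they were called in 6 to 8 of the 12 runs. Without the term, Cyp2a12 averaged 6.52 ± 1.41 in polyIC and 3.96 ± 2.55 FPKM in control, and Cyp2j5 4.98 ± 0.0369 in polyIC and 2.98 ± 2.11 FPKM in control (SD, n = 3 each), with overlapping libraries for both.

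Other hepatic enzymes had values on either side of 0. With the hepatocyte term, Cyp8b1 had a log2 change of -0.01 (95% interval -0.66 to 0.65), Cyp2c29 of 0.13 (-0.32 to 0.58) and Cyp2c50 of 0.06 (-0.42 to 0.55). Cyp4b1, Cyp2a4, Cyp3a13 and Cyp2c68 had values of -0.57, -0.58, -0.34 and -0.31 without passing the test. The count of calls with the term was 1 without polyIC replicate 0, 3 without polyIC replicate 1, 3 without polyIC replicate 2, 2 without control replicate 0 and 2 without control replicate 1, beside 0.628%, 1.75%, 2.67%, 1.31% and 1.65% of all genes in the same order. Without control replicate 2 and antiPDL1 replicate 2 together, 3 members were called higher and 2 lower, beside 6.70% of all genes higher and 9.97% lower.

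**Figure D4:**
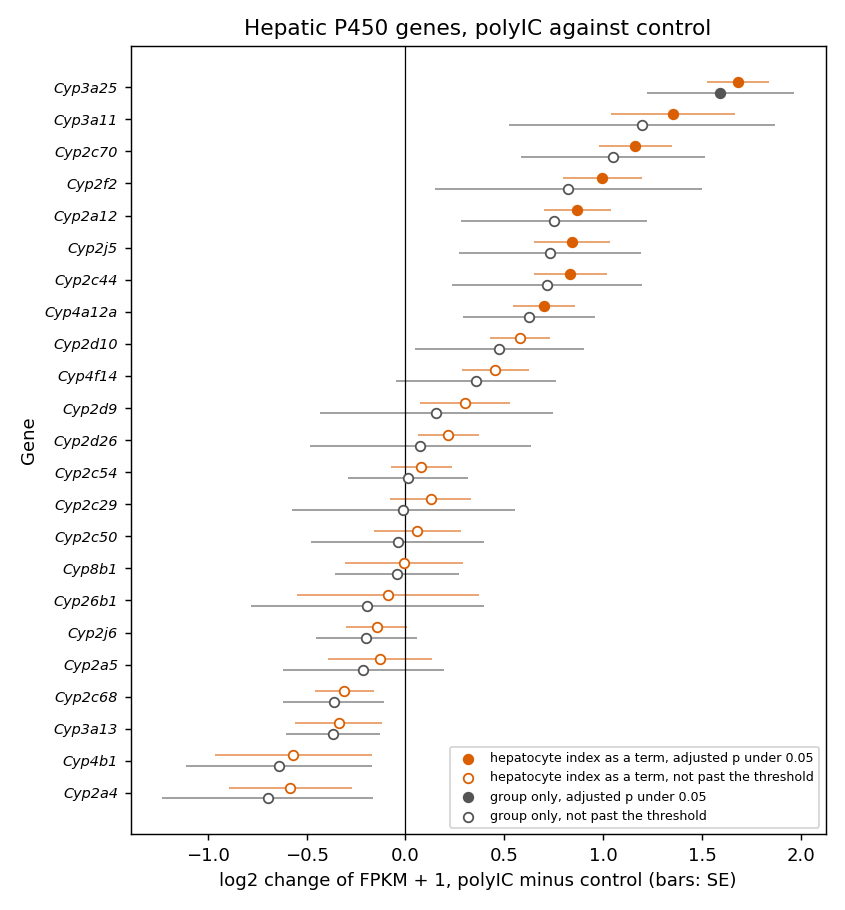
Log2 change of FPKM + 1 in polyIC against control for the 23 hepatic enzymes tested, with the hepatocyte term in the fit (orange) and with group only (grey). Bars are SE and filled points passed an adjusted p of 0.05 in limma: 8 with the term and 1, Cyp3a25, without it.

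Sequence upstream of the start site is shown for Cyp3a25, Cyp3a11 and Cyp2c70, which had the largest changes with polyIC, and for Cyp4f16 as a shared enzyme with another pattern. These 4 were chosen after their values and motif matches had been seen. Each line gives the 250 bases before the RefSeq start, 5′ to 3′ on the gene's strand, from build GRCm38.p6. Capitals mark matches, on either strand, to any of 7 motifs searched, whose letters stand with their counts in the next paragraph. Cyp3a25 lies at chr5:146009619-146009868 on the minus strand, Cyp3a11 at chr5:145879855-145880104 on the minus strand, Cyp2c70 at chr19:40187287-40187536 on the minus strand and Cyp4f16 at chr17:32536307-32536556 on the plus strand.
Cyp3a25: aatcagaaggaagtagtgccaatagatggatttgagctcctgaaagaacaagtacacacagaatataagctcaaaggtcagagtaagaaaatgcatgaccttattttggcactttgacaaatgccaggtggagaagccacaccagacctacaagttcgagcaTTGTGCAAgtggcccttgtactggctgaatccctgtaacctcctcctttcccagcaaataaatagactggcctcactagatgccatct
Cyp3a11: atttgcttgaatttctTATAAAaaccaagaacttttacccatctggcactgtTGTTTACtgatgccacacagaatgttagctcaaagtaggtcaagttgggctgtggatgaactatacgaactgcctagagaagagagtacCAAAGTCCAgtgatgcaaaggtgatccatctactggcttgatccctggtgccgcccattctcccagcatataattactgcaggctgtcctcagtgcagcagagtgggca
Cyp2c70: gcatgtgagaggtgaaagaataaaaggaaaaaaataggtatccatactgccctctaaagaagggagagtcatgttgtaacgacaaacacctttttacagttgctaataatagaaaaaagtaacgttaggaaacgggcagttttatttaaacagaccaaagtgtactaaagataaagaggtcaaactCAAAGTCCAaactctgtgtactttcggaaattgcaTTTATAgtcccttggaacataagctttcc
Cyp4f16: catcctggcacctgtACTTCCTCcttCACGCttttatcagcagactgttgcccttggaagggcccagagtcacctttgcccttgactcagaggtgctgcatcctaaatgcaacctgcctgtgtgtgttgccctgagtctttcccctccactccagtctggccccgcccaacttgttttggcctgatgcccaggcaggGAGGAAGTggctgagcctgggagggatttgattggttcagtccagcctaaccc

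RefSeq windows were found for 30 of the 37 members, as 26 windows of 22 hepatic genes and 8 windows of the leukocyte and shared genes. The HNF4 letters CAAAGTCCA, a motif of a hepatocyte regulator, were in 5 of 26 hepatic windows (Cyp2c67, Cyp2c68, Cyp2c70, Cyp3a11 and Cyp8b1), in 0 of 8 other windows and in 0.384% of all promoters. The PU.1 letters GAGGAAGT, a motif of a myeloid and B cell regulator, were in 3 of 26 hepatic windows, in 2 of 8 other windows (Cyp4f16 and Cyp4v3) and in 2.44% of all promoters. The TATA box letters TATAAA were in 14 of 26 hepatic windows, 0 of 8 other windows and 12.4% of all promoters on either strand, and in 8 hepatic windows and 7.59% of promoters on the gene's own strand. The C/EBP letters TTGCNNAA were in 9 of 26 hepatic and 1 of 8 other windows, against 9.56% of all promoters. These 9 windows belonged to 5 of the 22 hepatic genes, with 4 windows of Cyp4f14 and 2 of Cyp3a25. The HNF1 letters GTTAAT were in 5 hepatic and 0 other windows, against 6.43% of promoters. The FOXA letters TGTTTAC were in 2 hepatic and 0 other windows, against 3.17% of promoters. The core letters of the xenobiotic response element, GCGTG, were in 2 hepatic and 3 other windows, against 28.2% of promoters. No matches of different motifs overlapped in these windows. The near-identical genes named above share sequence, so their windows are not independent, and a match is a description of the letters and not a site.

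The PD-L1 antibody alone gave no call among the 34 members, beside 0.208% of all genes called, and 6 members had an unadjusted limma p under 0.05, beside 17.0% of all genes. The median log2 change was -0.80 over the hepatic enzymes, -0.01 over the leukocyte and shared enzymes and 0.01 over all genes. The hepatic sum of 114 FPKM in antiPDL1 replicate 2 stood beside 32.5 and 23.6 in replicates 0 and 1. Without antiPDL1 replicate 2, 2 members were called higher and 8 lower, beside 1429 of 11928 genes higher and 660 lower. Without control replicate 2, 0 were called higher and 3 lower, beside 0.184% of all genes higher and 2.38% lower. Without both, 2 were called higher and 24 lower, beside 14.5% of all genes higher and 13.2% lower. The hepatocyte sum moved in the same libraries, 3220 FPKM in antiPDL1 replicate 2 against 1218 and 601 in replicates 0 and 1, and its part in these counts was not tested.

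Set against polyIC, the combination had 3 members lower and 0 higher, beside 1.07% of all genes called lower and 0.167% called higher. They were Cyp2c70 with a log2 change of -2.34 ± 0.46, Cyp2d10 with -2.20 ± 0.43 and Cyp3a25 with -2.08 ± 0.37 (SE; limma, adjusted p = 0.0395, 0.0394 and 0.0375). All 23 hepatic enzymes tested had a log2 change below 0 and an unadjusted p under 0.05, beside 13.5% of all genes, with a median of -1.84 beside 0.06 over all genes. The count of calls ranged from 0 to 19 as each library was left out, and was 0 without any 1 of the combination or polyIC libraries or control replicate 1, and 5, 19, 12 and 18 without antiPDL1 replicate 1, antiPDL1 replicate 2, control replicate 0 and control replicate 2. The share of all genes called in those last 4 fits was 1.83%, 4.18%, 3.24% and 4.49% in the same order. With the hepatocyte term no member was called, beside 0.00834% of all genes, 3 members had an unadjusted limma p under 0.05, beside 4.85% of all genes, and the log2 change of Cyp3a25 was -0.25 (95% interval -0.91 to 0.42).

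Set against the antibody alone, the combination had 0 members called, beside 0.125% of all genes, and 5 with an unadjusted limma p under 0.05, beside 14.4% of all genes. The difference between the polyIC effect with and without antibody was called for 0 members, beside 0.025% of all genes, and 3 members, Cyp2c70, Cyp2j5 and Cyp3a25, had an unadjusted p under 0.05, beside 2.44% of all genes. Their interaction values were -1.58 ± 0.66, -1.47 ± 0.65 and -1.83 ± 0.53 on the log2 scale (SE; limma, adjusted p = 0.999 for each).

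Genes that work with the P450 enzymes were taken from lists. Beside their counts in combination stand 16.3% of all genes called lower and 13.1% called higher. Of 23 other genes of drug metabolism, 21 fell in combination against control, led by Sult1a1 with a log2 change of -3.54, Adh1 with -2.96 and Gsta3 with -2.84. Of 14 nuclear receptors and factors that control P450 genes, 8 were tested and 4 fell in combination: Hnf4a by -2.43, Rxra by -2.10, Nr1h4 by -1.36 and Ppara by -1.24 on the log2 scale. Of 7 electron partners, Fdxr, the mitochondrial adrenodoxin reductase, rose by 0.89, and Cyb5r3, Cyb5a and Pgrmc1 fell by 0.89, 0.70 and 0.55 on the log2 scale. Por was at 21.2 to 38.3 FPKM in combination and 27.7 to 37.1 FPKM in control libraries, with overlap. In the group-only fit none of these genes passed the test in polyIC or antiPDL1 against control. With the hepatocyte term none of them was called in combination against control, beside 0.0% of all genes. Their median log2 change there was -0.01 for other drug metabolism, -0.0005 for regulators and -0.04 for electron partners. In polyIC against control with the hepatocyte term, Hnf4a fell by 0.94 and Ces3a, a carboxylesterase, rose by 0.59 on the log2 scale (limma, adjusted p = 0.0371 and 0.0481).

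Further lists held genes of oxysterol, leukotriene and steroid synthesis and targets of the aryl hydrocarbon receptor. Beside their calls in combination stand 16.3% of all genes called lower and 13.1% called higher. With the hepatocyte term none of the listed genes was called in combination against control, beside 0.0% of all genes. Ch25h, which makes 25-hydroxycholesterol, had 4.20, 7.87 and 3.26 FPKM in combination, 0.945, 0.771 and 0.921 in polyIC, 3.47, 1.97 and 0.579 in antiPDL1 and 0.474, 0.675 and 0.916 in control libraries, and it rose by 1.79 ± 0.35 in combination against control (SE; limma, adjusted p = 0.00517). Cyp7b1, which acts on that product, did not pass the test (log2 change -0.26 ± 0.37, adjusted p = 0.612). Of 5 tested genes of leukotriene synthesis and reception, Lta4h rose by 0.53, and Ltc4s fell by 2.98 on the log2 scale. Of 2 tested targets of the aryl hydrocarbon receptor, Nqo1 fell by 0.62. Of 3 tested genes of steroid synthesis, Fdxr and Tspo rose, by 0.89 and 1.34, while Cyp11a1, the first enzyme of that pathway, had a mean of 0.227 FPKM and stood under the 0.5 FPKM mean for members.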

How the data were processed

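Expression was measured in 12 libraries of CD45-positive liver cells, which were taken from tissue by magnetic selection for CD45, and a stranded mRNA kit was used, per the labels' protocols. The authors deposited 1 table of FPKM per gene and library. Cuffdiff and the mm9 genome are named per the submitters' processing notes; its version is not given in the sources used here, nor are aligner, annotation or scaling. The header does not name the unit, which was read from the values. Without strand-aware counting being stated, reads of overlapping genes may be mixed.

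Members, classes, gene lists and tests were chosen with earlier results of these data known. Of 24319 entries, 9 with a whole group listed at 0 beside at least 5 FPKM in another were left out as failed estimates, none a member. The test covered 11991 genes, 34 members among them, that reached 1 FPKM in 3 or more libraries. log2(FPKM + 1) was fitted with limma 3.58.1 (limma-trend, two-sided) in R 4.3.3, 1 fit over 12 libraries with group as term, with Benjamini-Hochberg adjusted p under 0.05. The tests were checked on simulated data with independent noise per gene and changes added only to genes above a set level. Those data held no shared shift of hepatocyte RNA, so the check does not cover such a shift or the lowest members. Named were all leukocyte and shared members, the 15 highest hepatic ones and every called member, and up to 3 called genes per companion list, except that all called regulators and electron partners are given; the calls with the hepatocyte term, Por, Cyp26b1, Cyp2c67, Cyp2d40 and Cyp11a1 were added after their values were seen. The hepatocyte term was 1 of the listed alternatives, and further settings of that fit were chosen after seeing the data. Transcript identity was taken with blastn on GENCODE M21 for 36 of 37 members, over at least 500 aligned bases, with 85% as the limit for uncertain reads. Precision comes from the spread between libraries, since read counts are unknown and no counting interval was made.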

Additional observations from a re-analysis of the deposited data

How the results depend on the processing

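For combination against control, 13 to 17 members were called when the pseudocount was 0.1, the filter was dropped or set to a mean of 0.5 FPKM, and under both rescalings, a fit of only the groups compared and the replicate block. The share of all genes called in those fits was 23.8% to 32.9%. With the hepatocyte term the count was 0, also together with a pseudocount of 0.1, and without control replicate 2 and antiPDL1 replicate 2 together it was 30, with 2 higher and 28 lower, beside 21.1% of all genes higher and 21.7% lower. Leaving out 1 library gave 8 to 26 calls, beside 14.1% to 37.2% of all genes. The cause was not tested.

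For polyIC against control, the count of 1 was 0 when the pseudocount was 0.1, when the filter was dropped or set to a mean of 0.5 FPKM, with only the groups compared, or with the replicate block. The share of all genes called in those fits was 2.82% to 3.87%. The count was 8 with the hepatocyte term and a pseudocount of 1 or 0.1, beside 5.79% and 5.37% of all genes. It was 9 without control replicate 2 and antiPDL1 replicate 2 together. Those 9 were 2 higher, Cyp3a25 and Cyp4f18, and 7 lower, beside 10.3% of all genes higher and 13.4% lower, and Cyp3a25 was the only one also among the 8. Leaving out 1 library gave 0 to 3, beside 0.335% to 15.4% of all genes. With the hepatocyte term, settings chosen after seeing the data gave 8 calls with a pseudocount of 0.1, with the 0.5 FPKM mean filter and with Alb alone as the term, 7 with the replicate block, 10 with other drug metabolism genes as the term, 5 without control replicate 2 and antiPDL1 replicate 2 together, and 1 to 10 without 1 library. The share of all genes called with the term was 4.74% to 7.81% in the fits that kept every library and 16.7% without those libraries together. It was 0.628% to 14.6% without 1 library. For antiPDL1 against control, leaving out 1 library gave 0 to 10 members, beside 0.0% to 17.5% of all genes. Leaving out control replicate 2 and antiPDL1 replicate 2 together gave 26, beside 27.7% of all genes.

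For combination against polyIC, the count of 3 was 12 with a pseudocount of 0.1, 24 with only the groups compared, 25 without control replicate 2 and antiPDL1 replicate 2 together, and 0 with no filter, either rescaling, the replicate block or the hepatocyte term with either pseudocount. The share of all genes called was 1.23% in the main fit and 2.87%, 11.2% and 9.41% in the fits with 12, 24 and 25 calls. It was 0.00834% to 0.167% in the fits with 0 calls. Leaving out 1 library gave 0 to 19 members, beside 0.0% to 4.49% of all genes. The combination against antiPDL1 and the interaction had 0 members called under each alternative run, beside at most 2.75% and 0.0422% of all genes.

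With the hepatocyte term, 8 log2 changes called in combination against control changed sign: Cyp2a4 to 0.29, Cyp2a5 to 0.53, Cyp2c29 to 1.13, Cyp2c50 to 0.61, Cyp2d10 to 0.54, Cyp2d26 to 0.94, Cyp2d9 to 0.82 and Cyp2f2 to 1.66. With a pseudocount of 0.1 as well, a setting added after seeing the data, 11 did: these genes stood at 0.011, 0.89, 1.31, 0.60, 0.61, 0.99, 0.72 and 1.86 in the same order, Cyp2c68 at 0.15, and in combination against polyIC Cyp2c70 at 0.14 and Cyp3a25 at 0.43.

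The labels do not say whether the replicate numbers pair the samples. Over 18 pairs of libraries with the same number the correlation of deviations from the group means had a median of 0.0258, from -0.2838 to 0.31, with 4 over 0.1. Over 36 pairs with different numbers the median was -0.0104, from -0.3033 to 0.3724. With 3 libraries per group these values cannot show whether a pairing exists. The replicate block gave 15 members in combination against control, 14 of them also called without it, beside 32.7% of all genes. It gave 0 in the other comparisons, beside 0.00834% to 3.58% of all genes. Relative depth, estimated at 0.461 to 1, limits what the lowest members can show.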
